A study of Homo sapiens with 4 samples.

Results

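Open chromatin was described around 7 genes that set the threshold for cell death under endoplasmic reticulum (ER) stress. They were the BH3-only genes PMAIP1 (NOXA), BBC3 (PUMA) and BCL2L11 (BIM), the TRAIL death receptor genes TNFRSF10B (DR5) and TNFRSF10A (DR4), and the survival genes BCL2L1 (BCL-X) and MCL1. The members were chosen by position: every listed ATAC-seq peak with its midpoint within 20 kb of the hg19 start site of one of the 7 genes, with 2 kb as the limit for the promoter. It took 132 peaks, 33 and 36 from the 2 tunicamycin libraries and 32 and 31 from the 2 DMSO libraries. Merged across libraries wherever they shared at least 1 bp, they formed 48 of the 78788 regions of the whole series.

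The cells were HCT116, a human colorectal cancer line, all of the wild-type genotype. They had been kept for 6 h in 0.5 µg/ml tunicamycin, or for 6 h in 0.1% DMSO as vehicle, with 2 libraries per group from 50000 cells each. The series names the libraries of a group biological replicates and says nothing of separate cultures. The p-values therefore refer to these libraries only, and those of single regions rest mostly on a spread pooled over many regions. ATAC-seq marks DNA that a transposase can reach, and in a bulk library a site that is open in fewer cells cannot be told apart from one that is less open in each cell. The lists held 58467 and 62526 peaks after tunicamycin and 56581 and 56566 after DMSO. Read totals were not used here.

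BH3-only proteins bind and neutralise the survival members of the BCL-2 family or act on BAX and BAK directly, after which the outer mitochondrial membrane is permeabilised. TRAIL receptors start caspase activation from the cell surface and, for DR5, also from inside the cell when the receptor accumulates. Prolonged ER stress is known to raise transcripts of DR5 and of several BH3-only genes through the PERK, ATF4 and CHOP arm of the unfolded protein response, and BBC3, PMAIP1 and TNFRSF10B are also p53 targets. Tunicamycin brings on this response by blocking N-glycosylation.

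Each of the 7 genes had a promoter region that was open in all 4 libraries. Of the 48 regions, 24 (50%) had a peak in every library, against a background of 51.3% over all regions. A further 5 were listed in tunicamycin replicates 1 and 2 but not after DMSO, called gained here, and 2 had the reverse, called lost. The gained regions made up 10.4% of the 48, against 3.65% of all regions, and the lost ones 4.17%, against 1.86%. One of the 5 gained regions reached the window through tunicamycin replicate 2 only, with its midpoint 19983 bp from the BCL2L11 start, while that of tunicamycin replicate 1 lay at 20069 bp. Presence in a list gives no test with 2 libraries a group, and these shares rest on few regions. With lists limited to a −log10 q of at least 10, 2 regions were gained and 0 lost. Without tunicamycin replicate 1, when a single tunicamycin list sufficed, 11 regions counted as gained. Likewise 6 counted as lost without DMSO replicate 1 and 5 without DMSO replicate 2. Another 15 regions (31.2%) were listed in 1 library alone, against 22.3% of all regions, with 2 and 6 of them in tunicamycin replicates 1 and 2 and 3 and 4 in DMSO replicates 1 and 2. The summed number of peaks averaged 34.5 ± 2.12 per tunicamycin library and 31.5 ± 0.707 per DMSO library (SD, n = 2 each), a ratio of 1.10 where the whole lists gave 1.07. Within 2 kb of a start, the promoter limit, there were 13 regions with 10 and 9 peaks after tunicamycin and 11 and 11 after DMSO. A two-sided exact permutation test gave p = 0.33, the smallest value that 2 libraries against 2 allow.

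**Figure D1:**
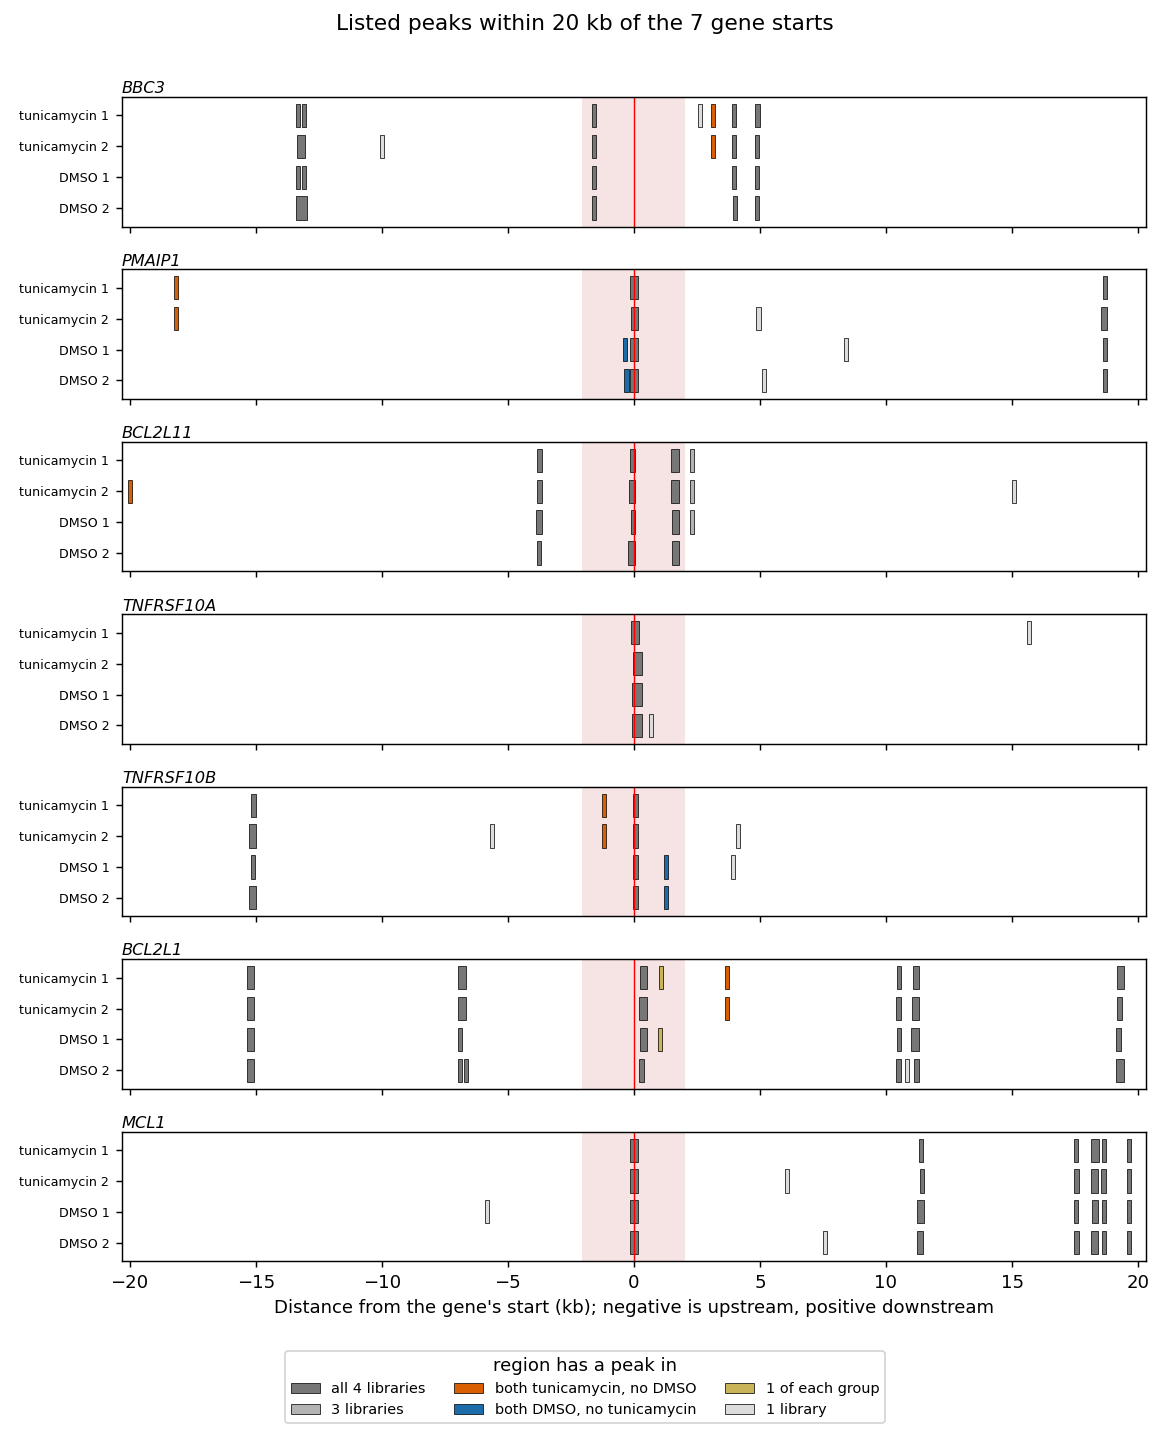
Each bar is a listed peak, placed by its distance in kb from the start of the gene in the direction of transcription (negative upstream), with 1 row per library and a colour for the libraries that list the region; bars are drawn at least 160 bp wide and the shaded band is the promoter limit of 2 kb. A grey region stands over the start in all 4 rows for PMAIP1, BCL2L11, TNFRSF10A, TNFRSF10B and MCL1. The nearest grey region is centred 0.36 kb downstream of the start for BCL2L1 and 1.58 kb upstream for BBC3. The 5 gained (orange) and 2 lost (blue) regions are narrow and mostly off the start sites. At BCL2L11 the tunicamycin 1 peak of the gained region falls just outside the window.

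No shared region near the 7 genes changed its rank beyond the test's threshold. Each library's best peak per region was ranked by its q-value over the 40447 regions with a peak in all 4 libraries, and normal scores of the ranks were compared between tunicamycin and DMSO by limma over all of these regions. After Benjamini-Hochberg adjustment limma called 0 of the 24 shared regions, where it called 0.0519% of all shared regions (0.0346% with a higher and 0.0173% with a lower rank after tunicamycin). At an unadjusted p under 0.05 there were 2 of the 24 (8.33%), beside 7.33% of all shared regions. Both ranked higher after tunicamycin, a direction in which 3.72% of all shared regions had such a p. That direction was not set beforehand, so the shares for either direction are the ones to compare. The change of score, tunicamycin minus DMSO, was positive in 13 of the 24 and negative in 11, with a median of 0.04 beside 0.00044 over all shared regions, and a range of -0.40 to 1.13. The 2 tunicamycin libraries both ranked a region above either DMSO library in 6 of the 24 (25%, background 18%) and below in 2 (8.33%, background 18.3%). The standard error of a change had a median of 0.373 units, and the smallest change that limma called anywhere in the series was 1.47 units.

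**Figure D2:**
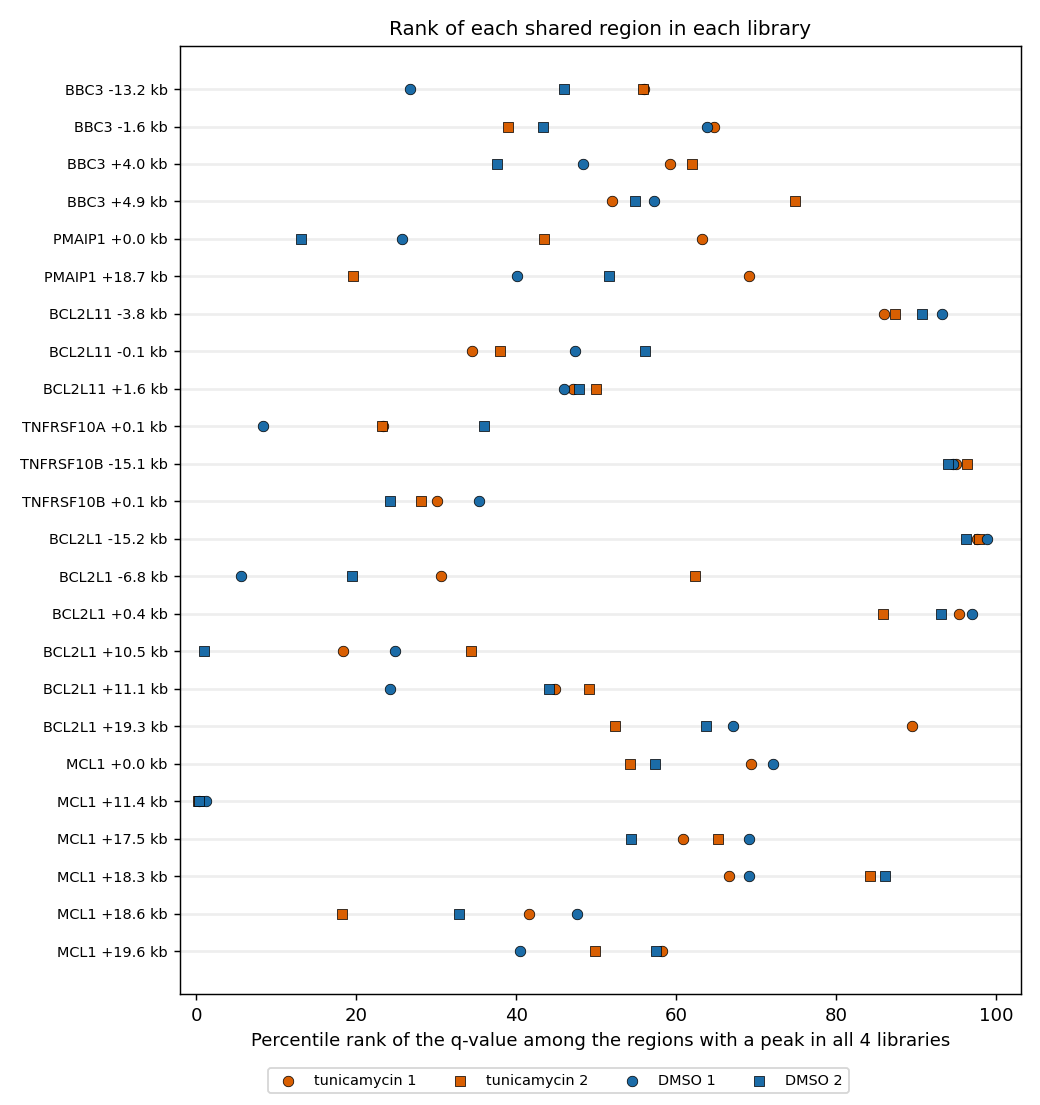
The horizontal axis is the percentile rank of a region's q-value among the regions with a peak in all 4 libraries, and each row is 1 of the 24 shared regions near the 7 genes, named by its distance from the start; orange points are tunicamycin and blue points DMSO libraries. Both tunicamycin points rank above both DMSO points in 6 rows and below them in 2, and the groups overlap in 16. The PMAIP1 start and the BCL2L1 region 6.78 kb upstream are among the 6, and the 2 are BCL2L11 regions.

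**Figure D3:**
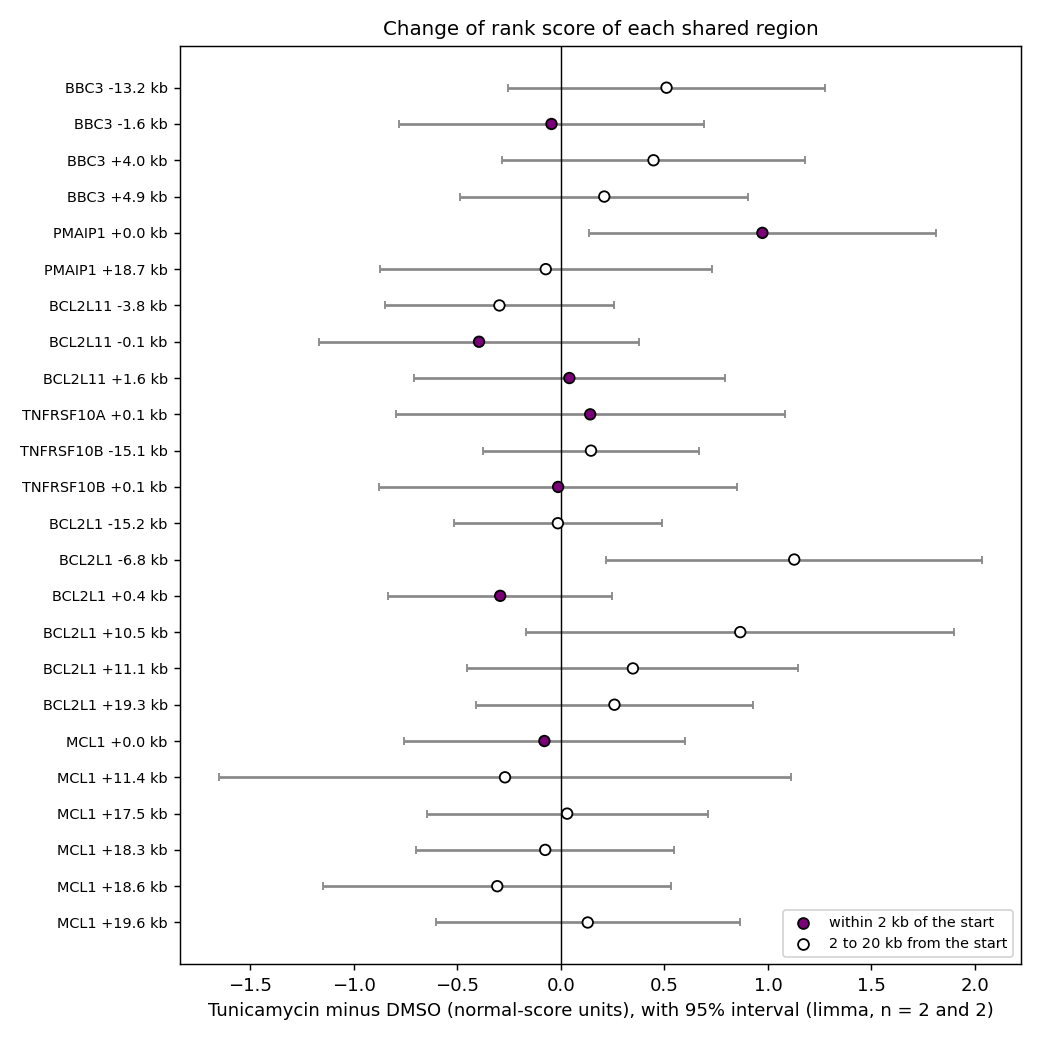
Points give the change of the rank score, tunicamycin minus DMSO, in normal-score units for the same 24 regions, with 95% intervals from limma (n = 2 libraries per group); filled points lie within 2 kb of the start. The intervals of 22 regions include 0, and those of the PMAIP1 start (0.14 to 1.81) and the BCL2L1 region 6.78 kb upstream (0.22 to 2.04) do not, before any adjustment for multiple tests.

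PMAIP1 encodes NOXA, a BH3-only protein that binds MCL1. Its start-site region, chr18:57567026-57567377, was open in all libraries and ranked higher in both tunicamycin libraries. It stood at percentile ranks 63.2 and 43.4 after tunicamycin and at 25.7 and 13.1 after DMSO, so the groups did not overlap. The summit carried 25 and 24 reads after tunicamycin and 15 and 13 after DMSO, as recovered from the authors' fold and p-value. Their exact Poisson 95% intervals, for counting error only, were 16.2 to 36.9 and 15.4 to 35.7 after tunicamycin, against 8.40 to 24.7 and 6.92 to 22.2 after DMSO, and all 4 overlap. The peak was 330 and 302 bp wide after tunicamycin and 328 and 291 bp after DMSO, so the widths of the groups overlapped. The change of score was 0.97 ± 0.420 (SE), with an unadjusted limma p of 0.0232 and a limma adjusted p of 0.598 over all shared regions. Among all shared regions, 1.87% had a larger positive change.

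A second PMAIP1 site, 298.5 bp upstream of the start at chr18:57566801-57566986, was listed after DMSO in both replicates and was lost after tunicamycin. In DMSO replicates 1 and 2 its peaks were 108 and 166 bp wide and carried 11 and 15 reads. Only 39 bp separated it from the start-site region, and with peaks up to 250 bp apart merged both became 1 shared region, whose change of score was 0.76 (limma adjusted p = 0.714). The promoter of PMAIP1 thus held 1 listed peak in each tunicamycin library and 2 in each DMSO library, and the listed bases within 2 kb came to 330 and 302 after tunicamycin and 436 and 457 after DMSO. The start-site summit lay 97 and 74 bp downstream of the start in tunicamycin replicates 1 and 2, against 102 bp upstream and 20 bp downstream in DMSO replicates 1 and 2.

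The sequences upstream of PMAIP1 and BCL2L11 are shown because their start-site peaks lay on opposite sides in rank. Both tunicamycin libraries ranked above DMSO at PMAIP1 and below it at BCL2L11. Neither change was called (limma adjusted p = 0.598 and 0.890), and 2 sequences picked in this way cannot link a motif to rank. Both sequences come from RefSeq on GRCh38.p14, plus strand. They cover the 250 bases before the gene's start as RefSeq places it, at 18:59899746-59899995 and 2:111120664-111120913. No hg19 genome was used, so whether this start is the same base as the hg19 start of the peak windows was not checked. Capitals mark TGACG, the half-site of the cAMP response element that ATF and CREB factors bind, found here on the minus strand.
PMAIP1: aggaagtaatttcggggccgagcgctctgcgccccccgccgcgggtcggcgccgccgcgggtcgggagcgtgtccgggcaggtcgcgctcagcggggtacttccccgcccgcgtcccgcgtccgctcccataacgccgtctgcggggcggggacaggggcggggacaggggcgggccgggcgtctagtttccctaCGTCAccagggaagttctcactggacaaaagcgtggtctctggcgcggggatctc
BCL2L11: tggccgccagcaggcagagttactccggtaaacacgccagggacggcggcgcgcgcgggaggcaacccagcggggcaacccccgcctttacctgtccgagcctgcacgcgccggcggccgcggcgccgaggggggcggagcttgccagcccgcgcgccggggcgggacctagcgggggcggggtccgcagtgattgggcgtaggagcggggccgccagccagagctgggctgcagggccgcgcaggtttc

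The PMAIP1 sequence held 1 such half-site, from base -55 to base -51 counted back from the start, and the BCL2L11 sequence held none. Over the same stretch of 35116 RefSeq promoters 21.2% held it on either strand, and it was looked for after the PMAIP1 sequence had been seen. Neither sequence held the ATF4-C/EBP composite element TGATGNAA (3.14% of promoters), the ER stress response element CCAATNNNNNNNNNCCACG (0.074%), the AP-1 motif TGANTCA (6.57%) or a p53 half-site (5.57%), on either strand. Both were GC-rich, at 72.8% for PMAIP1 and 76.8% for BCL2L11, where the median promoter had 58.0%. Of the 7 genes, 4 had an entry in the promoter table, and MCL1, TNFRSF10A and TNFRSF10B did not. Motifs were not looked up gene by gene for BBC3 and BCL2L1, and any link between a motif and rank was not tested.

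Farther from the PMAIP1 start, a region 18.65 kb downstream (chr18:57585727-57585962) was the gene's highest-ranked site, and its libraries did not divide by treatment. Its ranks were 69.1 and 19.6 after tunicamycin and 40.1 and 51.6 after DMSO, so the tunicamycin libraries were at both ends. A gained region 18.15 kb upstream, chr18:57548972-57549106, was weak, with summits of 6 and 8 reads in the tunicamycin libraries and peaks of 104 and 118 bp. The 3 other PMAIP1 regions were listed in 1 library each, 1 in tunicamycin replicate 2 and 1 in each DMSO library.

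BBC3 encodes PUMA, a BH3-only protein that binds all of the survival members of its family. No peak was listed over the start site used here, and the nearest region lay 1.58 kb upstream (chr19:47735958-47736105). It ranked at 64.7 and 38.9 after tunicamycin and at 63.8 and 43.4 after DMSO, so the replicate numbers differed more than the groups. Its change of score was -0.05 ± 0.370 (SE, 95% interval -0.78 to 0.69, limma adjusted p = 0.991).

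Downstream of the BBC3 start, a gained region lay beside a pair of shared ones. The gained region, 3.14 kb downstream at chr19:47731247-47731372, had peaks of 115 and 122 bp with summits of 15 and 36 reads in tunicamycin replicates 1 and 2 and no peak in either DMSO list. The replicates were unlike: the fold over local background, the authors' own value per peak, was 5.34 in tunicamycin replicate 1 and 11.1 in replicate 2. The shared region 3.99 kb downstream ranked at 59.2 and 61.9 after tunicamycin and at 48.3 and 37.6 after DMSO, and the groups did not overlap. Its change was 0.45 ± 0.366 (SE, limma adjusted p = 0.854). The shared region 4.91 kb downstream, the gene's highest-ranked site, stood at 51.9 and 74.9 after tunicamycin and at 57.1 and 54.8 after DMSO, with the tunicamycin libraries on either side. A shared region 13.18 kb upstream of the start also ranked higher after tunicamycin, at 55.9 and 55.8 against 26.6 and 45.9 after DMSO. With all libraries that was the gene's largest positive change, 0.51 ± 0.384 (SE, limma adjusted p = 0.842). It was 0.25 without DMSO replicate 1 and 0.77 without DMSO replicate 2, and without tunicamycin replicate 1 the region 4.91 kb downstream had the larger change, 0.52 against 0.51. In all, the BBC3 window held 7 and 6 peaks after tunicamycin and 5 and 4 after DMSO (two-sided exact permutation p = 0.33, the smallest possible).

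BCL2L11 encodes BIM, a BH3-only protein that also binds every survival member of its family. Its start-site region, chr2:111878275-111878537, was open in all libraries and ranked lower in both tunicamycin libraries. The ranks were 34.4 and 38.0 after tunicamycin and 47.3 and 56.0 after DMSO. This was the largest negative change among the 24 shared regions, -0.40 ± 0.388 (SE, 95% interval -1.17 to 0.38, limma adjusted p = 0.890). The summit reads did not differ in that way, at 25 and 30 after tunicamycin and 28 and 30 after DMSO. Summits lay within 18 bp of the start in every library, at 13 and 18 bp upstream after tunicamycin and 3 and 6 bp upstream after DMSO.

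The strongest site of the BCL2L11 window was 3.75 kb upstream, chr2:111874627-111874846. It ranked at 86.0 and 87.3 after tunicamycin and at 93.2 and 90.7 after DMSO, with 40 and 47 reads at the summit after tunicamycin and 46 and 44 after DMSO. Here too the tunicamycin ranks were both below, by a change of -0.30 ± 0.277 (SE, limma adjusted p = 0.883). The region 1.64 kb downstream of the start (chr2:111879968-111880295) was nearly level, at 47.0 and 50 after tunicamycin and 46.0 and 47.8 after DMSO. Its change was 0.04 ± 0.377 (SE, 95% interval -0.71 to 0.79). A gained region at the edge of the window, 20 kb upstream, had summits of 6 reads in both tunicamycin libraries, with peaks of 106 and 188 bp. The remaining 2 regions were 1 listed in 3 libraries and 1 listed in tunicamycin replicate 2 only.

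TNFRSF10B encodes DR5, a receptor for TRAIL. Its start-site region, chr8:22926522-22926729, was about equally ranked in both groups, at 30.1 and 28.0 after tunicamycin and 35.3 and 24.2 after DMSO. The summit held 20 and 22 reads after tunicamycin and 20 and 17 after DMSO, and the change of score was -0.01 ± 0.434 (SE, 95% interval -0.88 to 0.85, limma adjusted p = 0.997). That interval still allows changes of close to 1 unit either way.

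On either side of the TNFRSF10B start lay a pair of narrow sites that divided the libraries by treatment. The upstream one, 1.2 kb before the start at chr8:22927837-22927947, was gained, with peaks of 111 and 101 bp and summits of 19 and 17 reads in tunicamycin replicates 1 and 2. The one downstream, 1285 bp after the start at chr8:22925351-22925463, was lost, and in DMSO replicates 1 and 2 its peaks of 112 and 101 bp carried 9 and 13 reads. Each group therefore had 2 listed promoter peaks per library, covering 314 and 298 bp after tunicamycin and 304 and 303 bp after DMSO. In DMSO replicate 1 the lost site had a −log10 q of 3.55, and it no longer counted as lost at a limit of 5. The strongest site in the window was 15.13 kb upstream, chr8:22941685-22941967, at ranks 94.9 and 96.4 after tunicamycin and 94.5 and 93.9 after DMSO. Both tunicamycin ranks were above both DMSO ranks by a small margin, a change of 0.15 ± 0.261 (SE, limma adjusted p = 0.958). Another 3 regions were each listed in 1 library.

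TNFRSF10A encodes DR4, the other TRAIL receptor that carries a death domain. It had the fewest regions of the 7 genes, 3, and only the start-site region, chr8:23082349-23082774, was shared. That region ranked at 23.3 and 23.2 after tunicamycin and at 8.33 and 35.9 after DMSO, so both tunicamycin values lay between those of DMSO. Summit reads were 16 and 18 after tunicamycin and 12 and 19 after DMSO, over peaks of 317 and 382 bp after tunicamycin and 381 and 402 bp after DMSO. The change of score was 0.14 ± 0.471 (SE, 95% interval -0.80 to 1.08, limma adjusted p = 0.983). A peak 679 bp downstream of the start, with 17 reads at its summit, was listed in DMSO replicate 2 alone, at percentile rank 42.1 within that list. This was the highest mean rank of the gene's regions over the lists that hold them, but it rests on 1 list. In the same list the start-site region ranked higher, at 51.1, and its mean over 4 lists was 38.9.

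BCL2L1 encodes BCL-XL and, by alternative splicing, the pro-apoptotic BCL-XS. No listed peak covered the start used here. The nearest promoter region, centred 363 bp downstream at chr20:30311275-30311583, ranked highest among the regions nearest the starts of the 7 genes. The ranks were 95.3 and 85.8 after tunicamycin and 96.9 and 93.0 after DMSO. Its summit held 55 and 49 reads after tunicamycin and 58 and 50 after DMSO, and the change of score was -0.29 ± 0.272 (SE, 95% interval -0.83 to 0.25, limma adjusted p = 0.881). A further promoter site 1.04 kb downstream was listed in replicate 1 of each group only.

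The largest positive change of all 24 shared regions was at BCL2L1, 6.78 kb upstream of the start (chr20:30318381-30318768). It stood at ranks 30.5 and 62.3 after tunicamycin and at 5.60 and 19.5 after DMSO, so the groups did not overlap although the tunicamycin libraries differed widely. Its best summit held 14 and 25 reads after tunicamycin and 8 and 12 after DMSO. The region was 1 peak of 335 and 302 bp in the tunicamycin libraries, a single peak of 147 bp in DMSO replicate 1, and a pair of peaks of 157 and 150 bp in DMSO replicate 2. The change was 1.13 ± 0.456 (SE), with an unadjusted limma p of 0.0158 and a limma adjusted p of 0.559. Without tunicamycin replicate 2 it was 0.72, and without DMSO replicate 1 it was 0.76.

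BCL2L1 also had a gained region, 3.68 kb downstream of the start at chr20:30308052-30308164. Its peaks of 102 and 105 bp carried 21 and 32 reads at the summit in tunicamycin replicates 1 and 2, and its mean percentile rank of 55.8 within its own lists was the highest of the 5 gained regions. The strongest site of the window was 15.20 kb upstream, chr20:30326849-30327144, with ranks of 97.6 and 97.8 after tunicamycin and 98.8 and 96.2 after DMSO. The next protein-coding gene on that side in RefSeq's GRCh38 order is TPX2, a spindle assembly factor, and the gene to which the site belongs was not determined. Its change was -0.01 ± 0.252 (SE, 95% interval -0.52 to 0.49), the narrowest interval of the 24. The 3 other shared regions lay 10.49, 11.15 and 19.28 kb downstream, with changes of 0.87, 0.35 and 0.26, none of which limma called.

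MCL1 encodes a short-lived survival protein that NOXA, PUMA and BIM bind. Its start-site region, chr1:150552042-150552370, was centred 8 bp from the start. The groups were alike in rank, with replicate 1 above replicate 2 in each. It ranked at 69.3 and 54.3 after tunicamycin and at 72.1 and 57.4 after DMSO, with 26 and 24 summit reads after tunicamycin and 26 and 22 after DMSO. The peak was 327 and 316 bp wide after tunicamycin and 312 bp in both DMSO libraries. The change of score was -0.08 ± 0.340 (SE, 95% interval -0.76 to 0.60, limma adjusted p = 0.984).

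A cluster of 4 shared regions lay from 17.54 to 19.64 kb downstream of the MCL1 start. The next named protein-coding gene on that side in RefSeq's GRCh38 order is ADAMTSL4, and the regions were not assigned to either gene. The highest-ranked, 18.27 kb downstream (chr1:150533784-150534097), stood at 66.5 and 84.2 after tunicamycin and at 69.0 and 86.1 after DMSO. The site beside it, 18.64 kb downstream, had the gene's largest negative change, -0.31 ± 0.422 (SE, limma adjusted p = 0.937), with ranks of 41.6 and 18.2 after tunicamycin and 47.5 and 32.8 after DMSO. The site 19.64 kb downstream had the largest positive one, 0.13 ± 0.368 (SE, limma adjusted p = 0.979), at 58.2 and 49.9 after tunicamycin and 40.5 and 57.4 after DMSO. In each of these sites the groups overlapped. The shared region 11.36 kb downstream was the weakest of the 24, with summits of 7 reads in both tunicamycin libraries and 8 and 7 in DMSO replicates 1 and 2. MCL1 and TNFRSF10A had neither a gained nor a lost region.

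**Figure D4:**
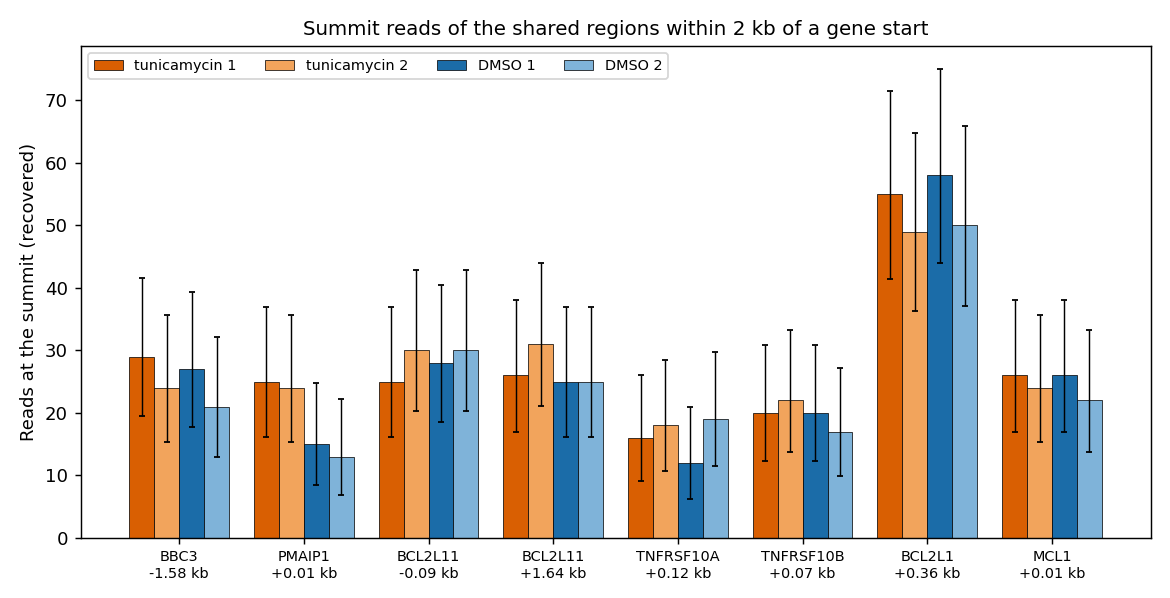
Bars give the reads at the summit, as recovered from the authors' fold and p-value, for the 8 shared regions within 2 kb of a start in each library, with exact Poisson 95% intervals for counting error; libraries are not scaled to each other. At the PMAIP1 start both tunicamycin bars (25 and 24) stand above both DMSO bars (15 and 13), while at MCL1 the bars are 26 and 24 after tunicamycin and 26 and 22 after DMSO.

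Ordered by the rank of the region nearest the start, averaged over both groups, the genes ran BCL2L1 (92.8), MCL1 (63.2), BBC3 (52.7), BCL2L11 (43.9), PMAIP1 (36.4), TNFRSF10B (29.4) and TNFRSF10A (22.7). BCL2L1 stood apart from the next gene, since its lowest library was at 85.8 and the highest MCL1 library at 72.1. From MCL1 down, the ranges over the 4 libraries of neighbouring genes overlapped. The range of PMAIP1, 13.1 to 63.2, was the widest of the 7 and the others spanned fewer percentile points. The 2 promoters of the survival genes thus lay at the top of this averaged order and those of the 2 death receptors at the bottom. In the DMSO libraries alone the lowest mean was that of PMAIP1, 19.4, below TNFRSF10A (22.1) and TNFRSF10B (29.7). After tunicamycin the PMAIP1 mean was 53.3, above TNFRSF10A (23.3) and TNFRSF10B (29.0). No test was made of this order.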

How the data were processed

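Each of the 4 libraries came with 1 peak list on hg19. Per the submitters' processing notes, the tools included MACS2 2.2.7.1, deepTools, Picard 2.18.23, SAMtools, Bowtie2 2.3.5.1 and Trim Galore. For roles, settings and any transposase shift, nothing is given in the labels or files. For every peak the authors deposited a score, a fold ratio at the summit over local background, −log10 p-values and −log10 q-values, and a summit offset. These are the authors' own values within a library and were used for ranks and description. For 100% of the members' peaks a whole-number pileup matched fold and p-value within 0.001; it is called reads at the summit, and it limits precision, with a median of 23. What was piled up is not known.

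Libraries were grouped by title. Peaks sharing at least 1 bp were merged, and ranks of regions listed 4 times were compared with limma 3.58.1 (R 4.3.3, prior spread following the mean score, Benjamini-Hochberg at 0.05, checked on simulated data). The simulated noise was normal, with the spread that the fit assigns to each mean score, and shifted scores were not ranked again. Regions whose own spread differs from that were not covered. In that check limma called 19.5% of 200 regions shifted by 1 unit, 94% at 2 units and 100% at 3 units. False calls numbered 2, 8 and 10. In this setting limma thus missed most shifts of 1 unit. Counts used two-sided exact permutation tests (scipy 1.17.1; pandas 2.3.3, numpy 2.4.6, Python 3.11.15). Gene strands are background knowledge. The 7 genes, the lists and the tests were chosen with earlier results of these data known. Regions described in full were, per gene, the nearest to the start within 2 kb, the highest-ranked, those with the largest positive and negative change, and all gained or lost ones; the BBC3 region 3.99 kb downstream, the regions listed in part of the libraries, and the TGACG motif were added after their values were seen. Other pathway genes, cell markers and hg19 sequence were not analysed here, since no hg19 annotation or genome was used. Alternatives were other limits on q-values, lists of equal length, window, merging, ranking and widths, each library left out, and a replicate block.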

Additional observations from a re-analysis of the deposited data

How the results depend on the processing

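With 1 library left out the gained regions numbered 5 to 11, the lost ones 2 to 6, the shared ones 24 to 25, and tunicamycin exceeded DMSO by 1.5 to 4.5 peaks per library (3.0 with all). The group left with 1 library then needs only that list, which raises its count by construction. At a −log10 q of at least 5, 1 region was lost; at 10, 2 were gained and 0 lost. Tunicamycin exceeded DMSO by 1 peak per library, and 3 regions were lost, with lists shortened to equal length; the excess was also 1 in a window of 10 kb, and 4 and 5 at a −log10 q of at least 5 and 10. A window of 10 kb held 3 gained and 12 shared regions, and merging within 250 bp left 1 lost. limma called 0 of the 24 shared regions under every alternative, ranking by fold or p-value, peaks of at least 130 bp, 1 prior spread, merging within 250 bp, each library left out and the replicate block included, with smallest adjusted p-values of 0.394 to 0.686. In the fit with the replicate block the smallest was 0.474 and the number called 0. Beyond the shared number, whether same-numbered libraries were handled together is not known. The correlation of their deviations was 0.0111 over 40447 regions, which cannot settle it. Over all regions the block gave 35 calls in place of 21. Over all regions limma gave 0 calls when ranked by fold or with 1 prior spread, and 4 to 27 with 1 library left out. Ranking by fold gave the BCL2L11 region 1.64 kb downstream a change of -0.044; the cause was not tested. Changes of either sign appeared when single libraries were left out: -0.25 to 0.22 at BCL2L1 15.20 kb upstream, -0.60 to 0.0098 at its promoter, -0.37 to 0.22, -0.66 to 0.041 and -0.084 to 0.34 at MCL1 18.27, 18.64 and 19.64 kb downstream, -0.28 to 0.12 at its start, -0.38 to 0.28 and -0.10 to 0.52 at BBC3 1.58 kb upstream and 4.91 kb downstream, -0.75 to 0.60 at PMAIP1 18.65 kb downstream, -0.17 to 0.15 at the TNFRSF10B start and -0.37 to 0.65 at the TNFRSF10A start. The PMAIP1 start kept a positive change, from 0.72 to 1.22.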
